A study of Rattus norvegicus with 20 samples.

Results

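The plasminogen activator system of the rat supraoptic nucleus (SON) was examined through 5 genes, Plaur, Plau, Plat, Serpine2 and Serpini1, of the 32402 Ensembl genes in the deposited tables. The genes were listed by symbol as activators, receptor and inhibitors of the system, and the set was chosen by a measured value, the higher normalized count of Plaur in dehydrated rats. The values of Plaur with dehydration are therefore given below as a description, without a test. Male Wistar Han rats were adult (3 months old) or aged (18 months old), and either euhydrated (EH), with free access to water, or dehydrated (DH). DH lasted 2 days according to the sample labels and 72 h according to the published methods. There were 5 rats in each of the 4 groups, adult EH, adult DH, aged EH and aged DH, and the labels name no transgene or drug. Each library held poly(A) RNA of bilateral 1-mm punches centred on the SON, so that glia, vessels and adjoining tissue were sampled with the neurones. In such bulk tissue, fewer cells of a type and less RNA per cell cannot be told apart.

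Plasminogen is cleaved to plasmin, a broad serine protease, by urokinase (uPA, encoded by Plau) or by tissue plasminogen activator (tPA, encoded by Plat). The urokinase receptor uPAR, encoded by Plaur, is anchored to the outer face of the membrane by a lipid tail and holds uPA at the cell surface. Protease nexin-1 (Serpine2) inhibits thrombin, uPA and tPA, whereas neuroserpin (Serpini1) is an inhibitor of tPA found mainly in nervous tissue. In the brain, the system is known for its part in the remodelling of matrix and synapses. The SON holds the magnocellular neurones that make vasopressin and oxytocin, and its neurones and astrocytes are known to change shape when an animal is dehydrated.

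The promoter of Plaur is shown because Plaur was the member whose level moved most between the groups. RefSeq promoter windows of the GRCr8 assembly, from 250 bases before to 50 bases after each gene's start, were at hand for 4 of the 5 members. They were searched on both strands for TGANTCA, which binds dimers of the Fos and Jun families (AP-1) and reads the same on either strand, for the cyclic AMP response element TGACGTCA, and for the GC box GGGCGG. None of these motifs contains another. The 250 bases before the start of Plaur (chr1:89181113-89181362, plus strand, GRCr8, 5′ to 3′) are printed with the AP-1 motif in capitals.
Plaur: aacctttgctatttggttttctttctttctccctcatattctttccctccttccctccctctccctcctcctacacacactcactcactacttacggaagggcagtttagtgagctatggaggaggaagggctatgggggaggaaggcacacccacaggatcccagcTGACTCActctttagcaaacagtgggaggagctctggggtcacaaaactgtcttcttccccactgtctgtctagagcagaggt

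The motif began 83 bases before the start of Plaur, whose window held neither a cyclic AMP response element nor a GC box. The windows of Plau, Serpine2 and Serpini1 held no AP-1 motif. Plau had 3 and Serpine2 had 6 GC boxes, and Serpini1 had none of the 3 motifs. Over all 33469 promoter windows of this length, 7.33% held the AP-1 motif with any middle base, 1.83% the cyclic AMP response element and 33.1% a GC box. A match is a run of letters in the reference and was not measured as a binding site here.

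Levels per rat are given as normalized counts on a common scale, which are the reads recovered for a gene divided by a size factor estimated over all 20 rats. Libraries held between 24268398 and 30348118 reads on genes, with a median of 27691998. Log2 fold changes (LFC) and their tests come from limma on log2 of the deposited normalized count plus 1, with the Benjamini-Hochberg method over all genes with a mean of at least 10. Tests were two-sided at an adjusted threshold of 0.05. All 5 members passed the filter in every comparison.

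Plaur was low in euhydrated rats and high in dehydrated rats of either age. In adult EH rats its normalized counts were 27.4, 18.4, 37.8, 22.7 and 27.5. In adult DH rats they were 182, 122, 217, 196 and 153. The lowest adult DH rat therefore lay far above the highest adult EH rat, and the ratio of the means was 6.49, from 26.8 ± 7.23 to 174 ± 37.3 (SD, n = 5). In aged EH rats the values were 34.1, 36.3, 41.8, 43.6 and 21.6, and in aged DH rats they were 182, 125, 138, 127 and 138. Here too the groups did not overlap, and the means of 35.5 ± 8.68 and 142 ± 23.2 (SD, n = 5) stood in a ratio of 3.997. The LFC was 2.66 (95% confidence interval 2.24 to 3.08) in adults and 1.99 (1.60 to 2.39) in aged rats. These values chose the set, so no test is attached to them.

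The euhydrated levels of Plaur rested on 19 to 46 reads per library and the dehydrated levels on 115 to 217 reads. In the 4 groups the spread between rats, as a coefficient of variation, was 16.3% to 27%, against 7.77% to 19.1% from counting alone. In the order of the group means, adult EH came first, then aged EH, aged DH and adult DH. The neighbours adult EH and aged EH overlapped, with 3 of the 5 aged EH rats within the adult EH range, and so did aged DH and adult DH, with all 5 aged DH rats within the adult DH range. Only the step from aged EH to aged DH was free of overlap.

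**Figure D1:**
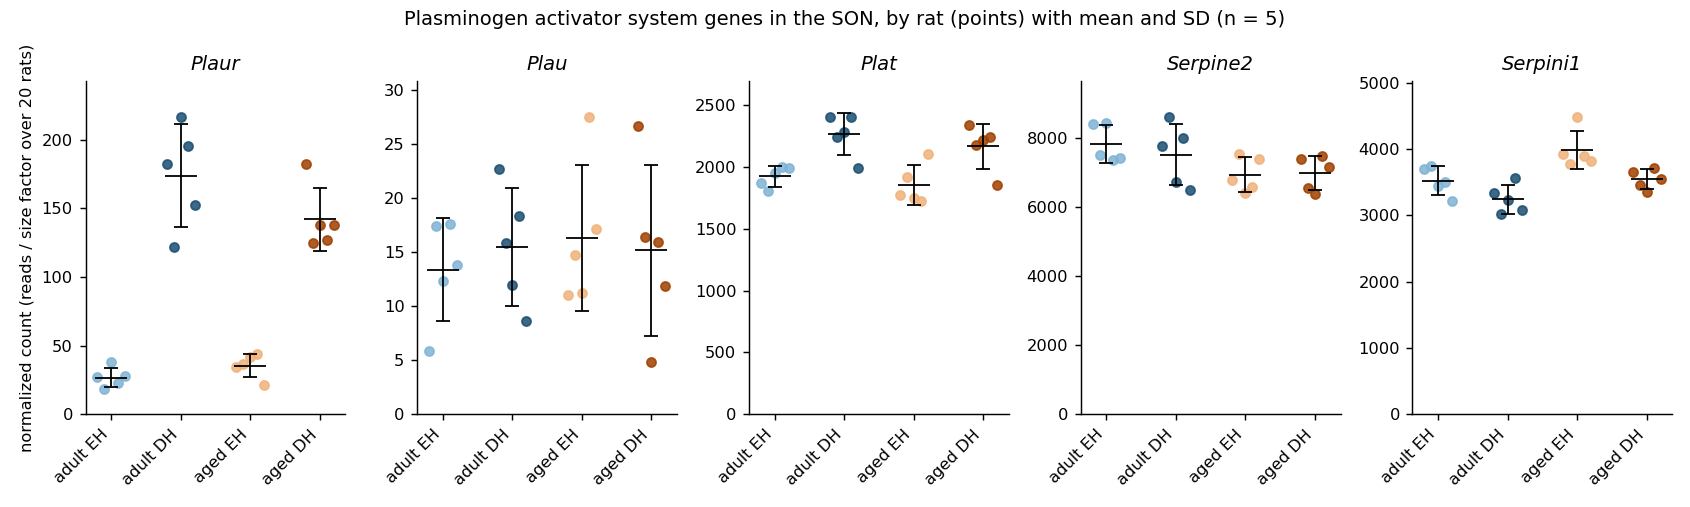
Normalized counts of the 5 genes on a common scale (y axis, from 0) in the 4 groups of rats (x axis). Each point is a rat, and the horizontal mark and bar give the mean and SD of 5 rats. Plaur separates DH from EH rats at either age, from 26.8 to 174 in adult and from 35.5 to 142 in aged means, whereas the groups of Plau overlap throughout.

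Whether Plaur differed with age was tested in EH rats, a contrast that did not choose the set. Between aged EH and adult EH rats the LFC of Plaur was 0.39 (SE 0.23, 95% confidence interval -0.11 to 0.89), which did not pass (limma, adjusted p = 0.386). Of the 25 pairs of an aged and an adult EH rat, 19 had the higher value in the aged rat. The LFC with DH was smaller in aged than in adult rats, by -0.67 (SE 0.28), and lay between -0.83 and -0.55 without each rat in turn. This difference is made of the same DH and EH values of Plaur that chose the set, and is given without a test. Over the 15326 genes tested by limma, 0 (0%) were called for an age difference in the DH response, the other 4 members among those not called. At an unadjusted p under 0.05 limma counted 1522 genes (9.93%) in that comparison, a larger share than the 0.05 that no age difference would give. The count of calls from recovered reads was 0 with edgeR and 56 (0.393%) with DESeq2. Plat, Serpine2 and Serpini1 were not among the latter, and Plau received no adjusted p from DESeq2.

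Plau, the gene of the protease that uPAR binds, was near the limit of detection in all groups. It had 6, 18, 13, 17 and 14 reads in the adult EH rats and 23, 15, 12, 16 and 8 reads in the adult DH rats. In aged EH rats it had 11, 15, 11, 29 and 19 reads, and in aged DH rats 28, 16, 5, 16 and 12. High and low libraries occurred in every group, and all pairs of groups overlapped. Normalized counts averaged 13.4 ± 4.78, 15.5 ± 5.44, 16.3 ± 6.74 and 15.1 ± 7.93 (SD, n = 5) in adult EH, adult DH, aged EH and aged DH. The LFC with DH was 0.21 (95% confidence interval -0.49 to 0.91, limma adjusted p = 0.732) in adults and -0.19 (-1.01 to 0.62, adjusted p = 0.831) in aged rats. These intervals run from 0.713 to 1.89 times the EH level in adults and from 0.497 to 1.54 times in aged rats, so a change within them was not detectable at this depth. Between the ages in EH rats the LFC was 0.27 (-0.43 to 0.98, limma adjusted p = 0.718).

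Plat, the gene of tPA, was higher in adult DH rats by a small amount. Its normalized counts were 1869, 1809.6, 1949.6, 2002 and 1991 in the adult EH rats and 2407, 2247, 2285, 2406 and 1991 in the adult DH rats. In 4 of the 5 adult DH rats the level lay above every adult EH rat, and the remaining rat lay within the EH range. The means were 1924 ± 82.6 in EH and 2267 ± 170.1 in DH (SD, n = 5). Plat passed the test with limma, at an LFC of 0.23 (SE 0.05, 95% confidence interval 0.13 to 0.34, adjusted p = 0.00832), or 1.18-fold.

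In aged rats the values of Plat were 1773, 1919, 1749.9, 1726 and 2103 in EH and 2340.5, 2178, 2218, 2240.0 and 1857 in DH. Again 4 of the 5 DH rats lay above every EH rat. The means were 1854 ± 158 and 2167 ± 183 (SD, n = 5), and the LFC of 0.22 (SE 0.07, 0.08 to 0.36) did not pass with limma (adjusted p = 0.0519) or edgeR (adjusted p = 0.0524), but passed with DESeq2 (adjusted p = 0.0178). Without aged EH replicate 6 the limma adjusted p was 0.0187, and without aged DH replicate 6 it was 0.00856. The difference between the ages was -0.01 (-0.19 to 0.17, limma adjusted p = 0.983), an interval that holds equal responses. Between aged and adult EH rats the LFC was -0.06 (-0.18 to 0.06, limma adjusted p = 0.611).

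Serpine2 and Serpini1 code for secreted serine protease inhibitors, or serpins, of the activators. Serpine2 did not pass the test in any comparison. Its normalized counts ran from 7386 to 8447 in adult EH, 6500.2 to 8629 in adult DH, 6407 to 7553 in aged EH and 6383 to 7476 in aged DH rats. The LFC with DH was -0.06 (-0.22 to 0.09, limma adjusted p = 0.622) in adults and 0.01 (-0.11 to 0.13, adjusted p = 0.947) in aged rats, intervals that run from 0.860 to 1.06 times the EH level in adults and from 0.928 to 1.09 times in aged rats. In aged EH rats the mean was 6948 ± 501 against 7840.2 ± 540 in adult EH rats (SD, n = 5). That LFC of -0.18 (SE 0.05, -0.29 to -0.06) had a limma adjusted p of 0.0735 and a DESeq2 adjusted p of 0.0341.

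Serpini1 did not pass with limma in any comparison, although its aged EH rats stood apart. Its normalized counts were 3706, 3746, 3449, 3506 and 3214 in adult EH and 3334, 3016, 3228, 3559 and 3077 in adult DH rats. They were 3927, 3780.0, 4489, 3894 and 3821 in aged EH and 3657, 3453, 3351, 3719.8 and 3556 in aged DH rats. Every aged EH rat lay above every adult EH rat and above every aged DH rat. The 5 against 5 rats were without overlap in 6.38% of the genes tested in the ageing comparison and in 7.05% of those tested in aged DH, so such a separation was shared by many genes. The LFC was 0.17 (SE 0.05, 0.06 to 0.29, limma adjusted p = 0.0706) between aged EH and adult EH, and -0.16 (SE 0.05, -0.27 to -0.06, adjusted p = 0.0544) with DH in aged rats. Neither passed with limma, and both passed with DESeq2 (adjusted p = 0.0341 and 0.0229). In adults the LFC with DH was -0.12 (SE 0.05, -0.23 to -0.01, limma adjusted p = 0.145). The contrasts with age and with DH in aged rats share the aged EH rats.

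Of the 4 members other than Plaur, 1 rose, 0 fell and 3 did not pass with DH in adults, where limma called 12.7% of all genes, 7.67% as higher and 4.99% as lower. In aged rats none of the 4 passed, with 7.29% of all genes called, 4.05% as higher and 3.25% as lower. Between aged EH and adult EH, none of the 5 members passed, with 5.99% of all genes called, 2.69% as higher and 3.3% as lower. DESeq2 on recovered reads called 2 of the 4 in aged DH, where it called 9.93% of all genes, and 2 of the 5 in ageing, where it called 7.71%. Since Plaur chose the set, nothing is read from these shares about the members. In adult DH, Plaur was also among the 10.9% of genes in which the 5 against 5 rats did not overlap.

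**Figure D2:**
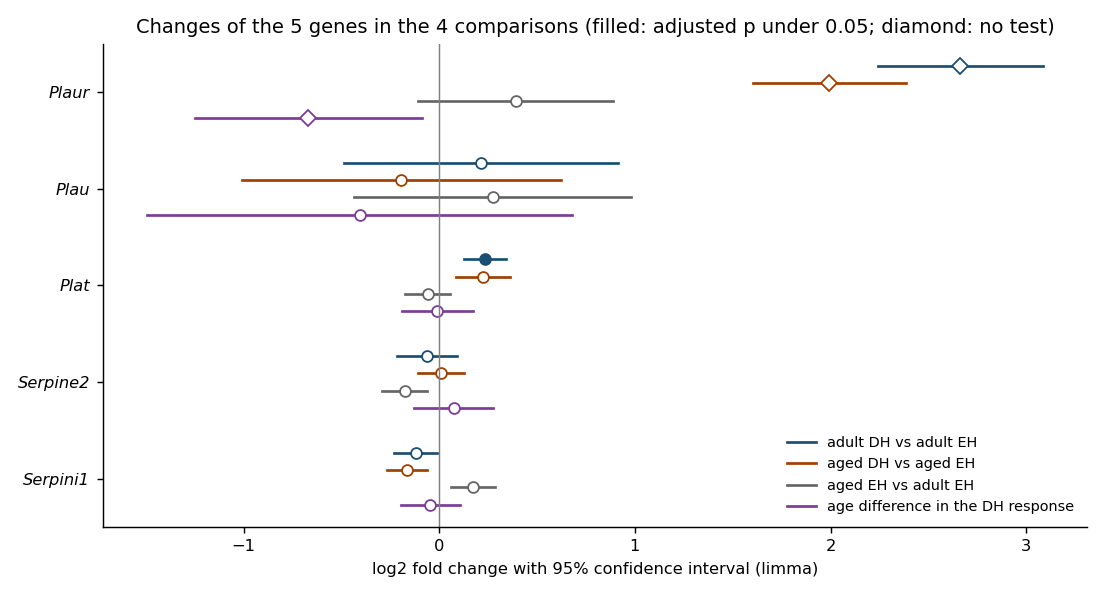
LFC (x axis, log2 scale) of the 5 genes in the 4 comparisons, as points with 95% confidence intervals from limma. Filled points had an adjusted p under 0.05, and diamonds mark the values of Plaur that chose the set, or are made of those values, and carry no test. Plaur stands at 2.66 and 1.99 with DH, while every estimate for Plat, Serpine2 and Serpini1 lies between -0.18 and 0.23.

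The wider system was followed in 73 further genes in 7 lists, of which 72 were matched by symbol and 55 passed the filter in each comparison. With DH in adults 13 rose (23.6%, against 7.67% of all genes) and 3 fell (5.45%, against 4.99%), and 39 did not pass. With DH in aged rats 8 rose (14.5%, against 4.05%) and 2 fell (3.64%, against 3.25%). Between aged EH and adult EH 4 were higher (7.27%, against 2.69%) and 5 were lower (9.09%, against 3.3%). The lists were drawn up with results of these data known, so these shares describe the genes listed and no more. Both DH comparisons and the ageing comparison share EH rats.

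Among the other genes of the activators' substrate and inhibitors, several were too low to test. Plg, the gene of plasminogen itself, had at most 20 reads in any library and means of 8.45 to 10.9 normalized counts, too few for the filter. Serpina5 was at 0 reads in all libraries and Serpinb2, coding for PAI-2, had at most 2 reads. Serpinf2, coding for the plasmin inhibitor alpha-2-antiplasmin, and Serping1, coding for the C1 inhibitor, passed the filter. Neither passed the test with DH, with LFCs of 0.34 and 0.09 in adults (limma adjusted p = 0.385 and 0.373) and of -0.14 and -0.04 in aged rats (limma adjusted p = 0.862 and 0.888).

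Among the 5 genes for surface proteins that bind plasminogen, S100a10, coding for the p11 subunit of the annexin A2 complex, rose in adult DH from 893 ± 113 to 1174 ± 91.0 normalized counts (SD, n = 5; LFC 0.40, limma adjusted p = 0.00674). In aged rats its LFC was 0.32 (0.00 to 0.63, limma adjusted p = 0.235). Eno1, coding for alpha-enolase, a glycolytic enzyme that also binds plasminogen at the surface, rose by an LFC of 0.14 (limma adjusted p = 0.00434) in adult and 0.16 (adjusted p = 0.00527) in aged DH rats. The list's median LFC in adult DH was 0.14, against -0.01 over all genes tested.

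A list of 7 tested genes covered endocytic receptors of complexes of protease and inhibitor and proteins related to them. In it Lrp8, the apolipoprotein E receptor 2, rose in adult DH (LFC 0.31, SE 0.03, limma adjusted p = 4.42e-05) and in aged DH (LFC 0.17, SE 0.03, adjusted p = 0.00744). Lrp1, the main clearance receptor for these complexes and for uPAR, had LFCs of 0.11 (limma adjusted p = 0.0535) in adult and -0.01 (adjusted p = 0.886) in aged DH. Mrc2, coding for the uPAR-associated collagen receptor Endo180, was lower in aged EH (LFC -0.29, limma adjusted p = 0.0235, lost without 1 of the 10 rats).

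uPAR has no part inside the cell and acts together with integrins, the matrix protein vitronectin and other surface receptors. Of 10 listed partners that passed the filter, among them integrin chains, Vtn and the growth factor receptor gene Egfr, Itga3, Itgb1 and Itga5 rose in adult DH, with LFCs of 0.26, 0.24 and 0.39 (limma adjusted p = 0.000349, 0.00168 and 0.00480), and Itgb2 fell (LFC -0.47, adjusted p = 0.0147). In aged DH Itgav, Itgb5 and Itga3 rose, with LFCs of 0.31, 0.24 and 0.17 (limma adjusted p = 0.000647, 0.0124 and 0.0398). The call for Itga3 in aged DH was lost without 9 of the 10 rats in turn. Itgam and Itgb2, the chains of the leukocyte integrin Mac-1, were higher in aged EH than in adult EH (LFC 0.61 and 0.36, limma adjusted p = 0.0365 and 0.0322), and Itgb1 was lower (LFC -0.25, adjusted p = 0.0161). Those calls for Itgam and Itgb2 were lost without 7 and 8 of the 10 rats in turn. Vtn, coding for vitronectin, had LFCs of -0.06, -0.18 and -0.27 in adult DH, aged DH and ageing, and did not pass (limma adjusted p = 0.766, 0.508 and 0.328). Egfr did not pass either, with LFCs of -0.02, -0.14 and -0.08 (limma adjusted p = 0.898, 0.343 and 0.646).

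Mmp9, coding for the matrix metalloproteinase gelatinase B, whose proenzyme is activated downstream of plasmin, had the largest LFC of the 55 genes in both DH comparisons and in ageing. Its normalized counts were 24.5 ± 10.3 in adult EH, 70.9 ± 20.51 in adult DH, 56.2 ± 23.3 in aged EH and 144 ± 37.2 in aged DH (SD, n = 5). The adult EH and adult DH rats overlapped, with ranges of 14.7 to 41.3 and 38.0 to 94.2, and so did the aged rats, with ranges of 40.2 to 97.2 and 95.7 to 192. The LFC was 1.52 (SE 0.28, limma adjusted p = 0.00292) with DH in adults, 1.37 (SE 0.23, adjusted p = 0.00274) with DH in aged rats and 1.17 (SE 0.28, adjusted p = 0.0280) with ageing. The ageing call was lost without 5 of the 10 rats in turn. The DH responses differed by -0.15 (-0.95 to 0.65, limma adjusted p = 0.934) between the ages.

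Other metalloproteinase genes moved less or the other way. Mmp14, coding for the membrane-type enzyme MT1-MMP, was lower in aged EH, at 581 ± 60.9 against 1034 ± 95.9 normalized counts in adult EH (SD, n = 5; LFC -0.83, limma adjusted p = 9.30e-05), with LFCs that did not pass with DH (0.01 and -0.11, adjusted p = 0.972 and 0.653). Mmp15 was lower in aged EH (LFC -0.26, limma adjusted p = 0.000513) and fell in adult DH (LFC -0.16, adjusted p = 0.0232, lost without 3 of the 10 rats in turn), and Mmp17 fell in aged DH (LFC -0.52, adjusted p = 0.00376). The inhibitor genes Timp3 and Timp4 rose in adult DH, with LFCs of 0.15 and 0.22 (limma adjusted p = 0.0141 and 0.0386). The call for Timp4 was lost without 8 of the 10 rats in turn.

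F2r, coding for the thrombin receptor PAR1, rose in adult DH from 726 ± 148 to 1089 ± 97.8 normalized counts (SD, n = 5; LFC 0.60, SE 0.11, limma adjusted p = 0.00246). It rose likewise in aged DH, from 570.2 ± 64.3 to 809 ± 108 (SD, n = 5; LFC 0.50, SE 0.09, limma adjusted p = 0.00484). There the aged EH and aged DH rats did not overlap, as in 7.05% of the genes tested. The adult rats overlapped, with ranges of 627 to 988 in EH and 943 to 1180 in DH. In the same list of 11 tested proteases and receptors, Tmprss5 fell in adult DH (LFC -0.40, limma adjusted p = 0.0486, lost without 8 of the 10 rats in turn), and St14, coding for the membrane protease matriptase, was higher in aged EH (LFC 0.66, adjusted p = 0.0103). Of the 8 tested growth factors that plasmin or the activators process, Tgfb1 and Pdgfd rose in adult DH (LFC 0.25 and 0.30, limma adjusted p = 0.0194 and 0.0488) and Tgfb2 fell in aged DH (LFC -0.15, adjusted p = 0.0384). The calls for Pdgfd and Tgfb2 were lost without 7 and 8 of the 10 rats in turn.

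**Figure D3:**
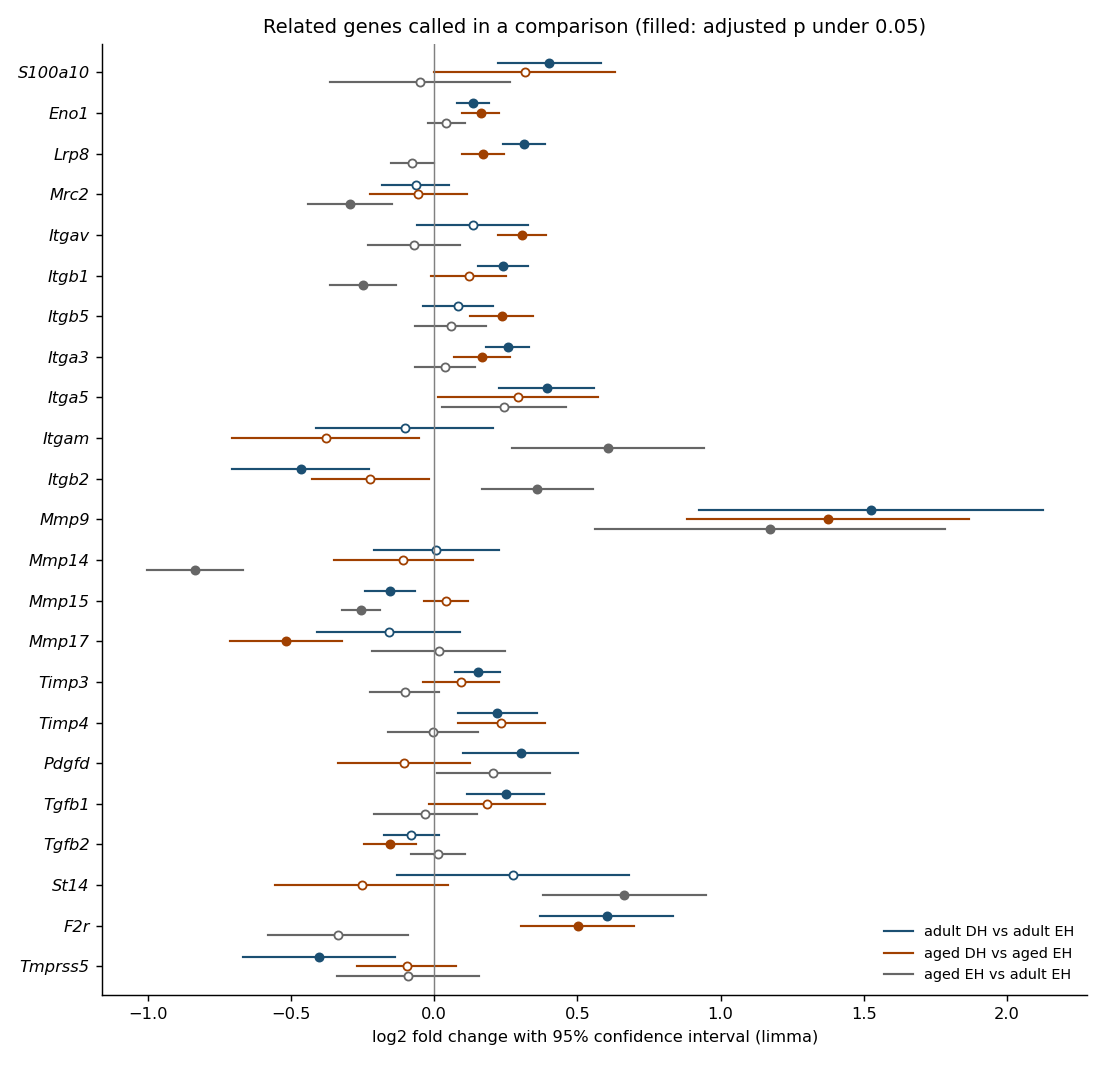
LFC (x axis, log2 scale) of 23 related genes called in at least 1 comparison (y axis), with 95% confidence intervals from limma. Filled points had an adjusted p under 0.05. Mmp9 lies farthest to the right in all 3 comparisons, at 1.52, 1.37 and 1.17, and Mmp14 farthest to the left in ageing, at -0.83.

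The genes whose pattern over the 20 rats was most like that of Plaur were found by Pearson's r of log2 values, over 13098 genes with a mean of at least 50. They were Tnfaip6 (r = 0.98), Klf7 (0.98), ENSRNOG00000048751 (0.97), Rasd1 (0.97) and Vgf (0.97). These values carry no p, because the 4 groups, the libraries and their scaling are shared by all genes, and any gene that moved strongly with DH scores high. When the group means were taken out, r was 0.82, 0.75, 0.56, 0.69 and 0.52, and Tnfaip6 kept the highest r of all genes ranked. Tnfaip6, coding for the hyaluronan-binding protein TSG-6, went from 80.8 ± 12.1 to 658 ± 148 normalized counts in adults and from 106 ± 31.7 to 408 ± 51.7 in aged rats (SD, n = 5). Vgf, coding for a secreted neuropeptide precursor, went from 1378 ± 111 to 4695 ± 629 in adults and from 1864 ± 206 to 3778 ± 440.2 in aged rats (SD, n = 5).

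The AP-1 motif was also present in the promoter window of Tnfaip6 and, among the genes described above, of F2r and Tmprss5. In Tmprss5, which fell in adult DH, the match read TGAATCA, outside the narrower AP-1 site, and its stretch is not printed here. For Plaur, Tnfaip6 and F2r, stretches of 17 bases on either side are set out to compare the sequence around the motif. The motif is in capitals, 5′ to 3′ on the strand of each gene.
Plaur (chr1:89181263-89181303, plus strand, GRCr8): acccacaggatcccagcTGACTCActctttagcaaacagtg
Tnfaip6 (chr3:56911189-56911229, plus strand, GRCr8): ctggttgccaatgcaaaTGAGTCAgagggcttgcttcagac
F2r (chr2:28620750-28620790, minus strand, GRCr8): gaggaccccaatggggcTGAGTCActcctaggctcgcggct

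Of the 5 genes most like Plaur, 4 had a window in the RefSeq table, of which 1 (Tnfaip6) held the AP-1 motif and 1 (Vgf) a cyclic AMP response element. Of the 21 related genes called with DH at either age, 14 had a window and 2 (F2r and Tmprss5) held the AP-1 motif, of which F2r rose and Tmprss5 fell. Beside the 7.33% of all windows that hold it, these counts are too small to set the genes apart.

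**Figure D4:**
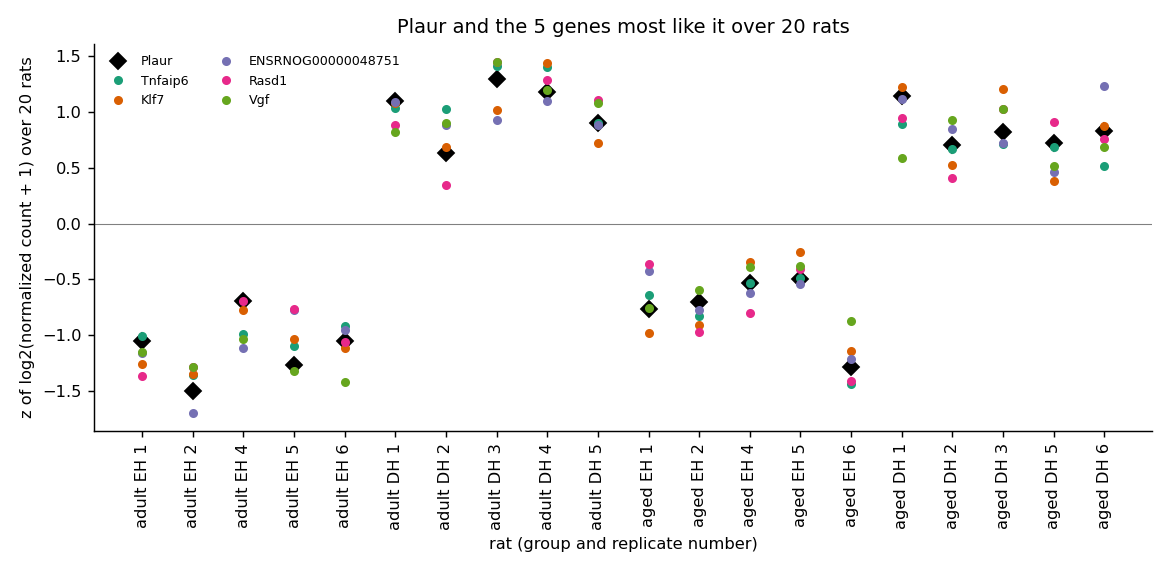
Log2(normalized count + 1) of Plaur and of the 5 genes most like it, each centred and scaled over the 20 rats (y axis, z units), with the rats along the x axis by group and replicate number. Each count is on the scale of the DH comparison of the rat's age. Diamonds are Plaur and circles the other genes. All 6 genes lie below 0 in EH rats and above 0 in DH rats, and within the groups Tnfaip6 (r = 0.82) follows Plaur most closely.

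The other members had their own neighbours. Plat was most like Nos3 (r = 0.89 over 20 rats and 0.86 with group means taken out), coding for endothelial nitric oxide synthase, followed by Tpm4 (0.84 and 0.63) and Tnn (0.84 and 0.64). Nos3 stood at 746 ± 55.4 and 886 ± 71.3 normalized counts in adult EH and DH and at 705 ± 77.1 and 793 ± 92.6 in aged EH and DH (SD, n = 5). Serpini1 was most like Eif2s3 (0.87 over 20 rats and 0.39 with group means taken out), Tnip1 (0.84 and 0.51) and Tomm34 (0.84 and 0.64). Serpine2 was most like Fyco1 (0.74 and 0.69), Kank4 (0.74 and 0.78) and Gprc5b (0.74 and 0.68). For Plau, with few reads, the highest r was 0.69 (Bach1). Among the members themselves, Plaur and Plat had r = 0.73 over the 20 rats and -0.04 with the group means taken out.

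Markers of the cell types in the punch were read beside these results, as 67 genes in 10 lists, of which 63 were matched and 61 tested. Of the 61, 7 rose in adult DH (11.5%, against 7.67% of all genes) and 2 fell (3.28%, against 4.99%). In aged DH 3 rose (4.92%, against 4.05%) and 2 fell (3.28%, against 3.25%). These shares describe the markers listed and no more. All 6 markers of magnocellular neurones, Avp and Oxt among them, were present, and Col1a2 was at 0 in every library. In adult DH, where Plaur, S100a10, Mmp9 and F2r were higher, the summed level of the 7 matched markers of border macrophages and blood leukocytes ran from 1439 to 1787 normalized counts, against 1017 to 1371 in adult EH, and 2 of its 6 tested genes rose (Cd163, LFC 1.16, limma adjusted p = 0.000224, and Mrc1, LFC 0.41, adjusted p = 0.00674). In aged rats, where Plaur, Mmp9 and F2r were also higher, that sum ran from 981 to 1792 in DH and from 1021 to 1452 in EH, and 0 of the 6 passed. The neutrophil marker S100a9 did not pass, with 24.1 ± 7.47 normalized counts in adult EH and 12.2 ± 5.10 in adult DH (SD, n = 5; LFC -0.97, limma adjusted p = 0.0634), and with 27.3 ± 9.85 in aged EH and 15.1 ± 6.56 in aged DH (SD, n = 5; LFC -0.83, limma adjusted p = 0.119). S100a8, below the filter, had means of 9.89 and 5.34 in adult EH and DH and of 6.38 and 3.91 in aged EH and DH. The leukocyte marker Ptprc stood at 299.9 and 301.8 in adult EH and DH and at 363 and 314 in aged EH and DH. uPAR and MMP-9 are known from monocytes and neutrophils, and the part of these cells in the results was not tested.

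The summed level of the 6 magnocellular markers also moved with adult DH, from 216371 to 303583 in EH to 305625 to 412789 in DH, and 2 of 6 rose (Scg2, LFC 0.96, limma adjusted p = 8.83e-06, and Avp, LFC 0.48, adjusted p = 0.0221, lost without 2 of the 10 rats in turn). Avp and Oxt made up most of the sum, with adult EH means of 166779 and 81118 against 266253 for the sum. Oxt, Sim1, Otp and Pou3f2 did not pass in adult DH, with LFCs of 0.17, 0.09, 0.07 and -0.05 (limma adjusted p = 0.187, 0.559, 0.673 and 0.731). In aged rats the sums were 262867 to 363012 and 310824 to 495202, with Scg2 higher (LFC 0.62, limma adjusted p = 7.34e-05) and Sim1 lower (LFC -0.30, adjusted p = 0.0484, lost without 8 of the 10 rats in turn). The 5 red blood cell markers summed to 11394 to 23940 in adult EH and 6863 to 16803 in adult DH, and to 9430 to 23251 and 7377 to 13974 in aged EH and DH, with 1 of 5 falling at each age (Hba-a1 in adults and Hbb in aged rats, lost without 8 and 7 of the 10 rats in turn). For the endothelium, beside Plat, the 5 matched markers summed to 7523 to 7817 in adult EH, 7301 to 8385 in adult DH, 6721 to 7445 in aged EH and 6699 to 8053 in aged DH, with 1 of 5 rising in adult DH and 0 of 5 in aged DH. The part of none of these in the results for the members was tested.

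In the ageing comparison 5 of the 61 tested markers were higher (8.197%, against 2.69% of all genes). A further 13 were lower (21.3%, against 3.3%). As with DH, these shares describe the markers listed and no more. The 7 microglial markers summed to 9055 to 10278 in aged EH against 7839 to 8674 in adult EH, and 3 of 7 were higher, beside the higher Itgam, Itgb2 and Mmp9. Of the oligodendrocyte markers, 5 of 7 were lower, and of 6 fibroblast markers 3 were lower (Col1a1, Col3a1 and Lum), beside the lower Mmp14. Astrocyte markers had 0 of 7 called with DH at either age and 2 of 7 lower with ageing. The part of these cell types in the results was not tested.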

How the data were processed

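RNA of the SON of 20 rats was sequenced by the authors as stranded, paired-end 75-bp poly(A) libraries. The methods name FastQC for quality control, STAR for alignment to the Rn6 genome, featureCounts for counts per gene and DESeq2 for normalization. The 3 deposited tables hold a signal per gene and rat, the read count divided by a DESeq2 size factor of that table. Columns with the authors' own fold changes and p-values were not used. All values in each library were whole reads after rescaling (100% within 0.1 read), and the 10 EH rats present in 2 tables gave equal reads.

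Each comparison was fitted with limma 3.58.1 (R 4.3.3) on log2(normalized count + 1), for genes with a mean of at least 10, with trended moderation and Benjamini-Hochberg adjustment at 0.05. LFCs on this scale understate changes of low genes. For the age difference in the DH response all 20 rats were fitted, each on the scale of the DH comparison of its own age. edgeR 4.0.16 and DESeq2 1.42.0 were run on recovered reads as alternatives, beside other pseudocounts, no filter, median centring, moderation without a trend, a replicate block and leaving out each rat. The fits were tested on simulated data. Counting error is the only error that counting coefficients of variation cover.

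The members and gene lists were chosen with earlier results of these data known. Genes named are the 5 members, listed genes called in any comparison, Plg, Lrp1 and Vtn, and the genes most like each member (5 for Plaur and 3 for the others). Some listed genes are counted but not reported here by name. The age difference of Plaur, planned as a test, is given without one because it uses the values that chose the set. Serping1, Serpinf2, Serpina5, Serpinb2 and Egfr were named after their values were seen, as were marker genes. RefSeq promoter windows (GRCr8) were matched by symbol. Figures were drawn with matplotlib 3.10.9.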

Additional observations from a re-analysis of the deposited data

Results flagged for a closer look

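Single rats were compared with the rest of their group for the 5 members in 4 groups, 20 groups in all, and 2 had a rat far from the others by Dixon's ratio of gap to range (critical value 0.71 for 5 rats). By chance about 5% of groups would be marked. The highest aged DH rat for Plaur, replicate 1, had 182 normalized counts, with a ratio of 0.767. Without it the aged DH mean was 132 ± 7.06 (SD, n = 4), with a range of 125 to 138, the LFC with DH in aged rats was 1.90 and the age difference in the DH response was -0.76, against 1.99 and -0.67 with all rats. The highest aged EH rat for Serpini1, replicate 4, had 4489 normalized counts, with a ratio of 0.793. Without it the aged EH mean was 3856 ± 67.04 (SD, n = 4), with a range of 3780.0 to 3927. The LFC of Serpini1 was then -0.12 with DH in aged rats (limma adjusted p = 0.0707) and 0.13 between aged and adult EH (limma adjusted p = 0.129).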

How the results depend on the processing

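Of the values for the 5 members under the alternatives, 383 stayed the same and 16 turned direction. A further 7 passed where they had not, 1 no longer passed and 1 moved by more than the spread between rats. The last was Plaur in adult DH, at an LFC of 2.31 with a pseudocount of 10. Tested values stayed the same if they kept their direction and their side of the threshold. The values of Plaur without a test did so if they kept their direction and moved by less than the spread between rats. Plat in aged DH passed after median centring (LFC 0.22, limma adjusted p = 0.0487) and with DESeq2 (0.22, adjusted p = 0.0178), which was chosen after seeing the data, and ran from 0.20 to 0.28 without each rat in turn. DESeq2, likewise added later, also passed Serpini1 in aged DH (-0.17, adjusted p = 0.0229) and Serpine2 and Serpini1 in ageing (-0.18 and 0.17, adjusted p = 0.0341 for both). The turned directions were all of values that did not pass. Without each rat in turn, Plau ran from -0.032 to 0.39 in adult DH and from -0.43 to 0.13 in aged DH, Serpine2 from -0.017 to 0.042 in aged DH, and the age differences of Plat from -0.055 to 0.044 and of Serpini1 from -0.071 to 0.00046. The cause was not tested.

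Genes called by limma without each rat in turn numbered 1463 to 1743 in adult DH, 678 to 1186 in aged DH, 594 to 906 in ageing and 0 to 5 in the age difference. Moderation without a trend gave 671 in aged DH, 516 in ageing and 1 in the age difference, and DESeq2 gave 56 in the age difference. Same-numbered rats of different groups deviated together with r of -0.08 to 0.16, and different-numbered rats with r of -0.25 to 0.13. The numbers therefore gave no clear sign of pairing, though so few same-numbered rats cannot exclude it. The replicate block gave 987 calls in adult DH, 653 in aged DH and 1 in the age difference, with Plat in adult DH at 0.24 (limma adjusted p = 0.0552) and Plau in aged DH at 0.026. Of 67 calls of listed genes, 28 were lost under some alternative and 0 turned direction. Of the members, depth limits Plau most, at no more than 29 reads per library.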
